A study of Sus scrofa with 6 samples.

Results

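Splicing factors and RNA-binding proteins were represented on the arrays by 63 genes out of 9828 named genes. They were chosen by name, as genes of the probe annotation with 1 symbol starting with SNRP, SRSF, SF3, HNRNP, PRPF or RBM. Each of the 63 had 1 probe among the 12258 probes of the table. There were 7 SNRP, 6 SF3, 7 PRPF, 7 SRSF, 9 HNRNP and 27 RBM genes. The symbol of RBM20 was repeated in its cell of the annotation and was counted as 1 symbol, and a probe listed for HNRNPA2B1 together with another locus was left out.

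Splicing removes introns from pre-mRNA. The spliceosome that does so is built from small nuclear ribonucleoproteins (snRNPs), to which the SNRP, SF3 and most PRPF genes contribute core or associated proteins. SR proteins (SRSF genes) and hnRNP proteins (HNRNP genes) bind exons and introns and help to decide which splice sites are used, often with opposing effects, and the RBM genes are a mixed set named after their RNA-binding motif. The fully grown oocyte is nearly silent in transcription and completes meiosis on stored maternal mRNA, whose poly(A) tails and stability change during maturation.

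The arrays compared 3 pools of porcine oocytes before maturation, titled as in vivo oocytes, with 3 pools matured in vitro. Each pool held 50 oocytes of pubertal crossbred Landrace gilts, with no mutation or transgene in either group. No drug was given apart from the hormones in the medium of the matured group. The matured group started as cumulus-oocyte complexes, oocytes with their somatic cumulus cells, which spent 44 h in TCM-199 medium with albumin, cysteine, follicular fluid, hCG and eCG. Only these pools were cultured and given the hormones hCG and eCG, so maturation, culture, medium and hormones cannot be told apart. How far cumulus cells were removed before RNA extraction is not given in the sources used here, and in pooled RNA fewer cells of a type and less RNA per cell cannot be told apart. A dye test (BCB) used to sort oocytes is named in the design text but is not assigned to single pools. The labels call the 3 pools of a group biological replicates, and the p-values rest on the spread between them.

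The array medians lay between 5.62 and 5.70 on the log2 scale, and replicates of a group correlated at 0.989 to 0.995 across probes, which are not independent. Of 15 measured oocyte markers 2 were lower and 0 higher after maturation, and their summed log2 level was 15.03 to 15.13 before and 15.01 to 15.04 after it. Of 18 cumulus and granulosa markers 10 were lower and 3 higher, and their summed level was 13.07 to 13.50 before and 12.31 to 12.38 after maturation, highest in replicate 3 before maturation. The corresponding ranges were 8.98 to 9.35 and 8.98 to 8.996 for 12 theca and stromal markers, 8.43 to 8.51 and 8.45 to 8.73 for 6 endothelial markers, and 8.80 to 8.91 and 9.05 to 9.17 for 10 leukocyte and erythroid markers. RMA values do not reach 0, so none of these markers can be called absent. The part of the other cell types in the results below was not tested.

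The comparison asked which of the 63 transcripts differed in level between pools before and after maturation. Most did not pass the test, and those that did were mainly lower after maturation. At an adjusted p under 0.05 in a limma fit across all probes, 8 genes were called lower (12.7%) and 1 was called higher (1.59%), while 54 were not called. Of all probes 8.07% were called lower and 3.21% higher, and 71.5% of all calls were lower. Among the 56 genes outside SRSF, the family with the largest share of calls, 5 were called lower (8.93%) and 1 higher (1.79%). That lower share was close to the share of all probes, but SRSF was left out for its calls, so the share had to fall. The genes called lower were SRSF5, SRSF6, SRSF11, HNRNPH1, HNRNPM, RBM14, RBMX and RBM34, and the gene called higher was RBM20. With the replicate number as a block 13 genes were called lower and 4 higher, against 10.0% and 5.07% of all probes. SRSF5 and SRSF6 were lower by at least 2-fold, a change that 3.20% of all probes showed in that direction. The lower share lay nearer to that of all probes once dim probes were left out. Without the dimmest 25% of probes 8 of 62 genes were called lower (12.9%) and 2 higher (3.23%), against 11.2% and 4.07% of the probes kept. Without the dimmest 50% of probes 8 of 57 genes were called lower and 0 higher, against 12.7% and 3.44%. Under a robust variance trend 10 of the 63 were called lower (15.9%) and 2 higher (3.17%), against 8.33% and 3.50% of all probes.

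The median difference of the 63 genes, after minus before, was -0.03 on the log2 scale, 0.11 below the median of all probes, which was 0.08. All 3 arrays after maturation lay below all 3 before it for 17 of the genes (27.0%), against 14.4% of all probes. The reverse held for 6 genes (9.52%), against 21.7% of all probes. The families differed in their medians, with -0.41 for SRSF, -0.35 for HNRNP, -0.11 for SNRP, -0.03 for PRPF, 0.02 for RBM and 0.13 for SF3. These medians are descriptions of 6 to 27 genes each, and the differences between families were not tested. The direction of the calls depends on the scaling. With each array at a common median 8 genes were called lower (12.7%) and 3 higher (4.76%), against 7.27% and 7.46% of all probes. With the ribosomal protein genes held level, which adds 0.74 to every difference and moves the median of all probes from 0.08 to 0.82, 1 gene was called lower (1.59%) and 45 higher (71.4%), against 2.54% and 86.6% of all probes. That scaling assumes that ribosomal protein mRNA did not change.

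**Figure D1:**
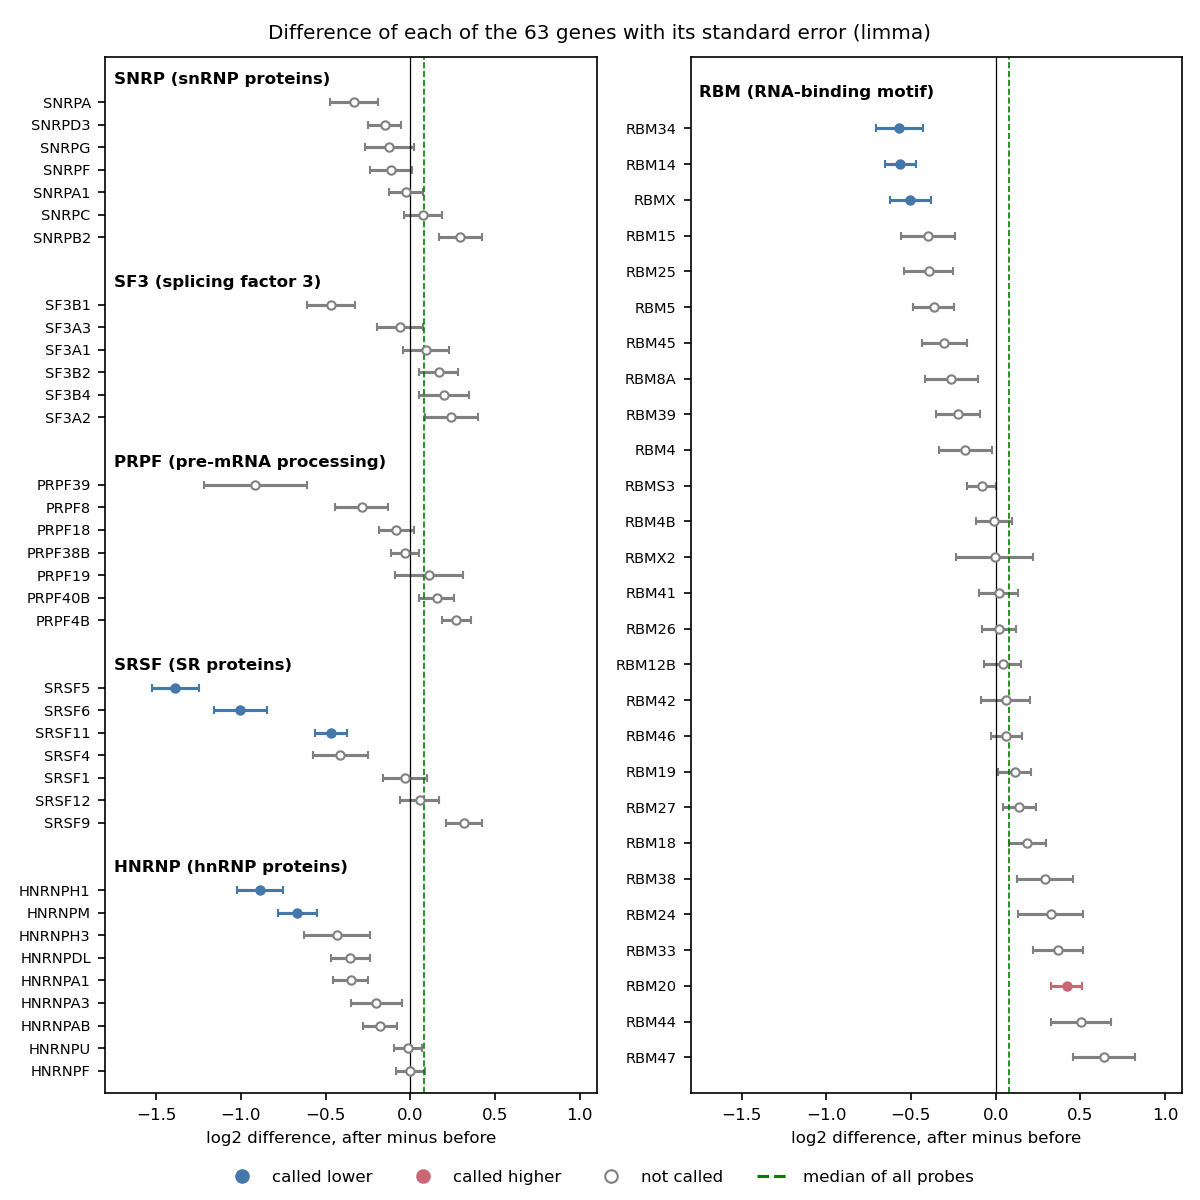
Log2 difference, after minus before maturation, of each of the 63 genes (points) with its limma standard error (bars), by family; filled points passed the test and the dashed line is the median of all probes (0.08). On the deposited scale all 9 HNRNP genes lie at or left of 0 (7 of 9 at a common median and 1 of 9 with ribosomal protein genes held level), and SRSF5 (-1.39) lies farthest left.

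SR proteins bind splicing enhancers through an RNA recognition motif and contact other splicing proteins through a region rich in arginine and serine. Of the 7 measured SRSF genes 3 fell (42.9%) and 0 rose, where 8.07% of all probes were called lower and 3.21% higher. SRSF5 measured 7.33, 7.45 and 7.72 on the arrays before maturation and 6.23, 5.88 and 6.22 on those after it. Every array after maturation lay more than 1 log2 unit below every array before it. SRSF5 fell by 1.39 ± 0.14 (SE), a level 2.62-fold lower (limma adjusted p = 0.000583, n = 3 per group), the largest change of the 63 genes on this scale.

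SRSF6 had values of 8.62, 8.91 and 9.25 before culture and 7.86, 7.88 and 8.04 after 44 h. The arrays before maturation were spread more widely (SD 0.32) than those after it (SD 0.10), and the groups did not overlap. SRSF6 fell by 1.003 ± 0.16 (SE), a 2.004-fold lower level (limma adjusted p = 0.00509, n = 3 per group). SRSF11, a more distant SR-related protein, stood at 8.98, 8.99 and 9.09 before maturation and at 8.43, 8.57 and 8.65 after it. It fell by 0.47 (adjusted p = 0.0180), and this call was lost without replicate 1 or replicate 2 after maturation (adjusted p = 0.0778 and 0.0601).

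The other 4 SRSF genes did not pass the test and pointed both ways. SRSF9 measured 8.97, 9.19 and 9.21 on the arrays before maturation and 9.56, 9.35 and 9.41 on those after it, a difference of 0.32 (adjusted p = 0.0958) without overlap of the groups. SRSF1, the founding SR protein with roles in splicing, export and translation, had values of 9.53, 9.89 and 9.84 before culture and 9.80, 9.54 and 9.82 after 44 h. Its difference was -0.03 ± 0.13 (SE), within the spread of either group. SRSF4, a close relative of SRSF5 and SRSF6, differed by -0.41 and its groups overlapped (adjusted p = 0.142), and SRSF12 differed by 0.05. With ribosomal protein genes held level SRSF5 was still called lower, SRSF6 was not called (-0.27) and SRSF11 had a positive value (0.27).

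**Figure D2:**
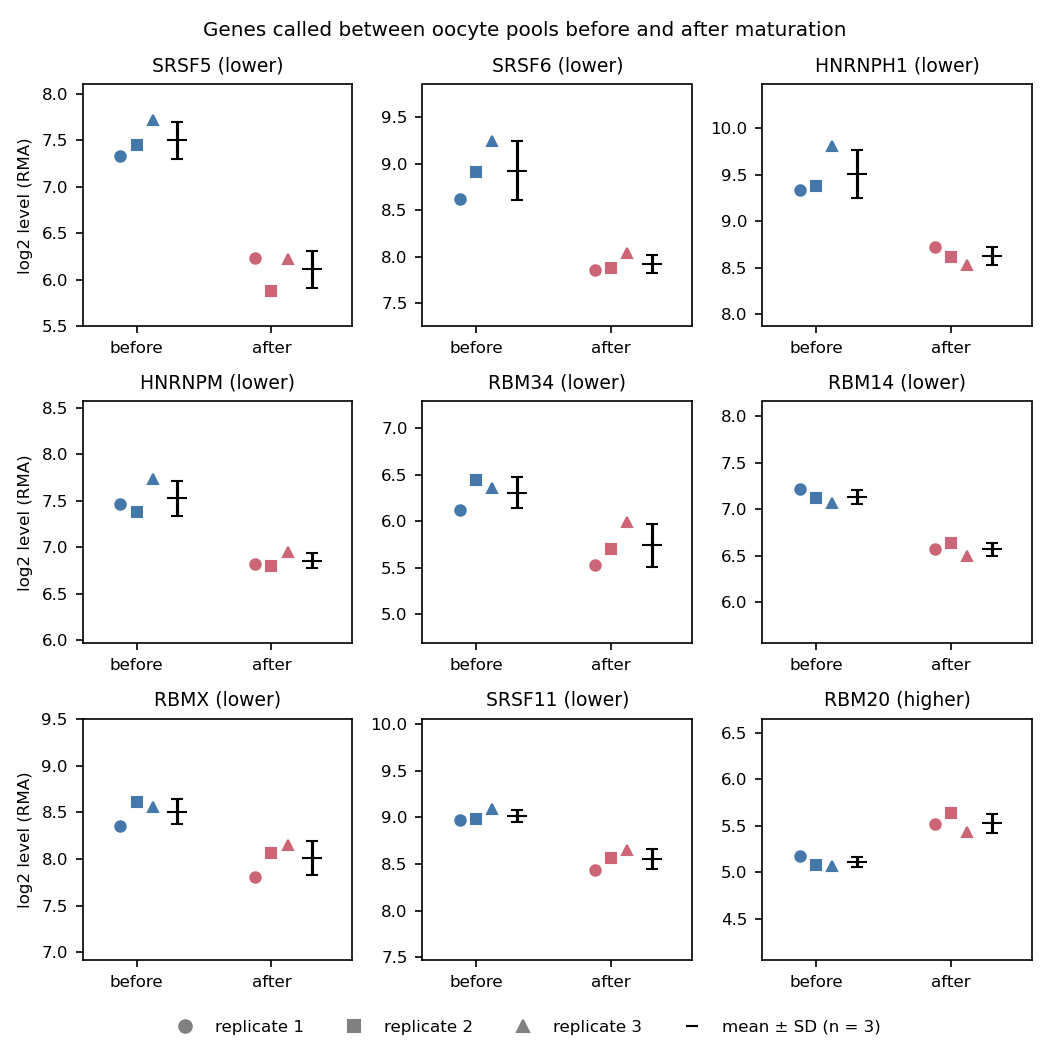
Log2 level (RMA) of the 9 genes that passed the test on each array, before (blue) and after (red) maturation, with marker shapes for replicates and black bars for the mean ± SD (n = 3); every panel spans the same 2.6 log2 units. In each panel the arrays of the groups do not overlap, and RBM20 is the gene with higher values after maturation.

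The hnRNP proteins coat nascent transcripts, and several of them repress splice sites. All 9 measured HNRNP genes had negative differences, of which 2 (22.2%) passed the test as lower and 0 as higher, against 8.07% and 3.21% of all probes. For 6 of the 9 (66.7%) all arrays after maturation lay below all before it, against 14.4% of all probes. With each array at a common median 7 of the 9 were negative, and with ribosomal protein genes held level 1 was. HNRNPH1, which binds G-rich elements near splice sites, stood at 9.34, 9.38 and 9.81 before maturation and at 8.72, 8.61 and 8.53 after it. It fell by 0.89 ± 0.14 (SE), a 1.85-fold lower level (limma adjusted p = 0.00515, n = 3 per group). HNRNPM measured 7.46, 7.38 and 7.73 on the arrays before maturation and 6.82, 6.80 and 6.95 on those after it. It fell by 0.67 ± 0.12 (SE), a 1.59-fold lower level (limma adjusted p = 0.00839, n = 3 per group). Replicate 3 before maturation was the highest array for both genes, and both calls held without any 1 of the 6 arrays.

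HNRNPA1, a repressor of exon inclusion, had values of 10.49, 10.59 and 10.77 before culture and 10.29, 10.18 and 10.32 after 44 h. Its groups did not overlap, but the difference of -0.35 missed the threshold (adjusted p = 0.0675). It passed with cyclic loess, with a further quantile normalization and under a robust variance trend (adjusted p = 0.0379, 0.0404 and 0.0314). HNRNPDL, a relative of the AU-rich element binding protein hnRNP D, stood at 9.99, 10.20 and 10.30 before maturation and at 9.68, 9.82 and 9.93 after it. Its difference was -0.35 (adjusted p = 0.0872), and the blocked fit called it lower (adjusted p = 0.0442).

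The remaining 5 HNRNP genes had differences of -0.43 to -0.0009. HNRNPH3 held the widest spread among them, at 10.02, 9.20 and 9.37 before maturation and 9.15, 9.06 and 9.09 after it, so that replicate 1 before maturation accounted for much of its mean. Without that array its difference was -0.19. HNRNPU, a scaffold protein of the nuclear matrix, measured 11.08, 11.08 and 11.16 on the arrays before maturation and 11.07, 11.11 and 11.11 on those after it. HNRNPF, a close relative of HNRNPH1, stood at 10.54, 10.54 and 10.47 before maturation and at 10.46, 10.55 and 10.54 after it. Neither moved beyond the replicate spread on the deposited scale, and both passed as higher where ribosomal protein genes were held level (0.72 and 0.74). Under that scaling HNRNPH1 was not called (-0.15) and HNRNPM, HNRNPA1 and HNRNPDL had positive values. Several hnRNP genes have processed pseudogenes and near-identical relatives, so their single levels are uncertain.

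The RBM genes were mixed in direction, with 13 negative and 14 positive differences, where 4242 of all probes were negative and 8016 positive. Of the 27, 3 were called lower (11.1%) and 1 higher (3.70%), shares close to the 8.07% and 3.21% of all probes. RBM14, a coactivator and paraspeckle protein, had values of 7.22, 7.12 and 7.06 before culture and 6.57, 6.64 and 6.50 after 44 h. It fell by 0.56 ± 0.09 (SE), a 1.48-fold lower level (limma adjusted p = 0.00642, n = 3 per group), and the call held without any 1 array. In the RefSeq table of the pig assembly Sscrofa11.1 the genes RBM4B, RBM4 and RBM14 are direct neighbours. RBM4 and RBM4B, regulators of alternative splicing, differed by -0.18 and -0.01 (adjusted p = 0.474 and 0.957). They are close copies of each other, so their separate levels are uncertain.

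RBMX, an X-linked hnRNP protein also known as hnRNP G, stood at 8.35, 8.62 and 8.56 before maturation and at 7.80, 8.06 and 8.15 after it. It fell by 0.50 (adjusted p = 0.0353). RBM34 measured 6.12, 6.44 and 6.36 on the arrays before maturation and 5.53, 5.70 and 5.99 on those after it and fell by 0.57 (adjusted p = 0.0377). The gap between its lowest array before and its highest after maturation was small beside the spread within groups. Both calls were lost without replicate 1 or 2 after maturation and without replicate 2 or 3 before it, with adjusted p of 0.0872 to 0.128, and the blocked fit kept both (adjusted p = 0.0140 for each). RBM34 was also not called after a further quantile normalization (-0.46, adjusted p = 0.0701).

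RBM20, known as the regulator of titin splicing in heart muscle, had values of 5.18, 5.08 and 5.07 before culture and 5.52, 5.63 and 5.43 after 44 h. It rose by 0.42 ± 0.09 (SE), a 1.34-fold higher level (limma adjusted p = 0.0261, n = 3 per group). All 6 values were under the array medians of 5.62 to 5.70 except replicate 2 after maturation, which was close to it. The call was lost without replicate 1 or 2 after maturation and without replicate 2 or 3 before it (adjusted p of 0.0640 to 0.0926).

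The other 23 RBM genes had differences of -0.40 to 0.64 and adjusted p-values of 0.0581 to 0.987. The following were chosen after their values were seen, because the blocked fit called them. RBM47, an RNA-binding protein studied in mRNA editing and splicing, stood at 4.37, 4.18 and 4.41 before maturation and at 5.40, 4.78 and 4.70 after it, a difference of 0.64 that was largest on replicate 1 after maturation. RBM47 was also called higher at a common median, without the dimmest 25% of probes and under a robust variance trend (adjusted p = 0.0421, 0.0419 and 0.0303). Its value on replicate 2 before maturation lay under the lower quartile of that array (4.30). RBM44, a gene of germ cells, measured 5.30, 5.94 and 5.91 on the arrays before maturation and 6.13, 6.17 and 6.37 on those after it, a difference of 0.50. RBM33 differed by 0.37, RBM15, a subunit of the complex that methylates adenosine in mRNA, by -0.40 and RBM5, a splicing regulator of apoptosis genes, by -0.37. For these 5 genes the blocked fit gave adjusted p-values of 0.0276 to 0.0476. RBM46, a germ cell gene, was the only gene of the 63 under the lower quartile of every array, with levels of 3.11 to 3.30, so its difference of 0.06 says little. RBM8A, a core protein of the exon junction complex that marks spliced mRNA, differed by -0.26 (adjusted p = 0.294).

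**Figure D3:**
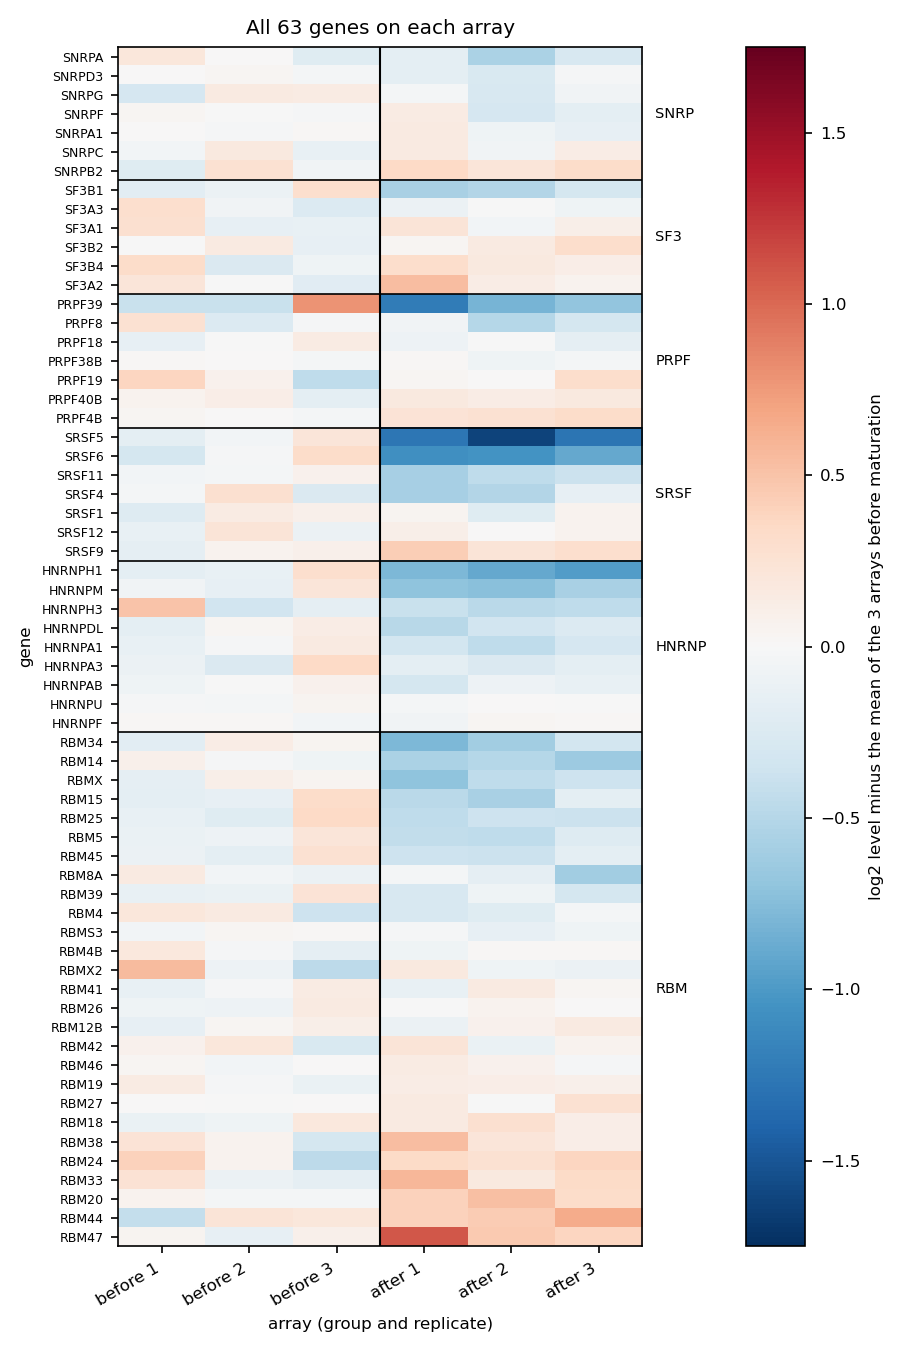
Log2 level of each of the 63 genes (rows, by family) on each array (columns), shown as the difference from that gene's mean over the 3 arrays before maturation. SRSF5 and SRSF6 are blue on all 3 arrays after maturation, and the PRPF39 row shows replicate 3 before maturation apart from the other 2.

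The SNRP genes encode the Sm ring and the specific proteins of U1 and U2 snRNP. With limma 0 of 7 were called, and at an unadjusted p under 0.05, which 13.4% of all probes passed as lower and 15.8% as higher, there was 1 lower and 1 higher. SNRPA, the A protein of U1 snRNP, had values of 9.52, 9.33 and 9.11 before culture and 9.15, 8.77 and 9.04 after 44 h, a difference of -0.33 with overlapping groups (adjusted p = 0.160). SNRPB2, a U2 snRNP protein of related sequence, stood at 8.60, 9.07 and 8.75 before maturation and at 9.16, 9.02 and 9.13 after it, a difference of 0.30 (adjusted p = 0.170). The Sm ring genes SNRPD3 and SNRPF differed by -0.15 and -0.11 (adjusted p = 0.327 and 0.564). SNRPG, SNRPA1 and SNRPC lay between -0.12 and 0.08. For none of the 7 did the groups separate.

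The SF3 genes encode the SF3A and SF3B complexes, which bind the branch site as part of U2 snRNP. With limma 0 of 6 were called, and 1 was lower at an unadjusted p under 0.05. SF3B1, the subunit that holds the branch-site adenosine, measured 9.57, 9.65 and 10.05 on the arrays before maturation and 9.19, 9.24 and 9.44 on those after it. Its groups did not overlap and it differed by -0.46 (adjusted p = 0.0728). It was called lower with the block (adjusted p = 0.0222), under a robust variance trend (0.0453) and without replicate 1 before maturation (0.0470). SF3A2, SF3B2 and SF3B4 had values of 0.24, 0.17 and 0.20 with overlapping groups (adjusted p of 0.326 to 0.393), and SF3A1 and SF3A3 had 0.09 and -0.06.

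The PRPF genes serve different steps. With limma 0 of 7 were called, with 1 lower and 1 higher at an unadjusted p under 0.05. PRPF4B, a kinase that acts on the tri-snRNP, had values of 9.35, 9.31 and 9.27 before culture and 9.55, 9.57 and 9.63 after 44 h. These were narrow groups without overlap, and the difference of 0.27 missed the threshold (adjusted p = 0.0769) but passed with each array at a common median (0.33, adjusted p = 0.0378). PRPF39, a U1 snRNP associated protein, stood at 5.996, 5.997 and 7.17 before maturation and at 5.16, 5.57 and 5.69 after it, a difference of -0.91 (adjusted p = 0.0929). The blocked fit called it lower (adjusted p = 0.0174), and without replicate 3 before maturation its difference was -0.52. PRPF8, the protein at the catalytic centre of the spliceosome, measured 9.42, 8.91 and 9.12 on the arrays before maturation and 9.10, 8.66 and 8.84 on those after it. Its value was lower after maturation in each of the 3 same-numbered pairs, by -0.29 on average, yet the groups overlapped (adjusted p = 0.260). With the block PRPF8 was not called either (adjusted p = 0.0825). PRPF40B, a further U1 associated protein, differed by 0.16 (adjusted p = 0.340), and PRPF18, PRPF19 and PRPF38B lay between -0.08 and 0.11.

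Spread between replicates differed by group. The median SD of the 63 genes was 0.18 before and 0.12 after maturation, against 0.13 and 0.12 over all probes. Of the 8 genes called lower, replicate 3 before maturation was the highest array of its group for 5 and replicate 1 the lowest for 6. Replicate 3 before maturation was also the array with the highest summed level of cumulus and granulosa markers. After maturation replicate 3 was again the highest array of its group for 5 of the 8 genes. Its summed marker level was there the lowest of its group (12.31, against 12.38 and 12.34). A link between these markers and the 8 genes was not tested. Without replicate 3 before maturation 6 genes were called lower (9.52%) and 0 higher, against 6.41% and 1.35% of all probes. Without replicate 1 or replicate 2 after maturation 5 were called lower (7.94%), against 4.33% and 4.45% of all probes. Calls thus became fewer over all probes too. The smallest two-sided p of an exact permutation test with 3 arrays per group is 0.1, which was the value for each of the 9 called genes. Any gene whose groups do not overlap gets this value, so it does not set the called genes apart. HNRNPA1, HNRNPDL, PRPF4B, PRPF39, PRPF40B, SF3B1 and SRSF9 had it without being called.

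Other genes of splicing were read from 7 lists, of which 97 genes were measured. Of these 7 were lower, 2 were higher and 88 missed the threshold (7.22% lower and 2.06% higher, against 8.07% and 3.21% of all probes), and their median was -0.004. With the block 10 were called lower and 4 higher, against 10.0% and 5.07% of all probes. The list of SR-related proteins and SR kinases held the kinases that phosphorylate SR proteins. Of its 13 measured genes 3 fell (23.1%) and 1 rose (7.69%), against 8.07% and 3.21% of all probes. The gene that rose was SCAF1 (0.37, adjusted p = 0.0377). The SCAF1 call was lost under a robust variance trend (adjusted p = 0.0922) and without replicate 1, 2 or 3 after or replicate 2 or 3 before maturation (0.0718 to 0.125). CLK1, a kinase of SR proteins, had values of 6.31, 5.97 and 7.16 before culture and 4.55, 4.27 and 4.68 after 44 h. All arrays after maturation lay well below those before it, close to their own lower quartiles over all probes (4.33 to 4.45), so the measured 3.95-fold lower level is not exact. CLK1 fell by 1.98 (limma adjusted p = 0.00277), a larger change than that of any of the 63 genes on this scale. CLK4, a related kinase, stood at 8.80, 8.80 and 8.996 before maturation and at 8.40, 8.25 and 8.21 after it and fell by 0.58 (adjusted p = 0.00905). ARGLU1, a coregulator of splicing, fell by 0.64 (adjusted p = 0.0374), a call that ended without replicate 1, 2 or 3 after or replicate 2 or 3 before maturation (adjusted p of 0.0527 to 0.135).

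Calls in the remaining lists were few, where 8.07% of all probes were called lower and 3.21% higher. DHX15, a helicase that takes apart spent spliceosomes, measured 7.66, 7.40 and 8.05 on the arrays before maturation and 6.29, 5.45 and 6.47 on those after it and fell by 1.63 (limma adjusted p = 0.00656), the only call among 10 early spliceosome genes without the block. SNRNP48, a protein of the minor spliceosome, differed by -0.54 (adjusted p = 0.0752) and was called lower with the block (0.0440) and under a robust variance trend (0.0412). Its values after maturation (4.01, 4.08 and 4.14) lay under the lower quartiles of those arrays (4.33 to 4.45). Replicate 2 before maturation (4.21) was under its quartile too, so the size of the difference is uncertain. SNRNP48 and the other genes given below for a call with the block were chosen after their values were seen. In the activated and catalytic spliceosome 2 of 17 genes fell (11.8%). These were the prolyl isomerase gene PPIL3 by 0.66 (adjusted p = 0.0228) and XAB2 by 0.65 (adjusted p = 0.0469). CRNKL1 of the same list differed by -0.38 (adjusted p = 0.0775) and was called lower with the block (0.0489). DDX39B, a helicase of mRNA export, fell by 0.33 (adjusted p = 0.0447), the only call among 8 genes of the exon junction complex and export, and was not called with the block (adjusted p = 0.0615). Among 28 other regulators of alternative splicing CELF5 rose by 0.43 (adjusted p = 0.0391) and 0 fell, with 2 lower and 6 higher at an unadjusted p under 0.05, against 13.4% and 15.8% of all probes. With the block 3 of the 28 were called higher and 1 lower, against 5.07% and 10.0% of all probes. The added calls were CELF3 (0.52, blocked adjusted p = 0.0247), ELAVL3 (0.44, blocked adjusted p = 0.0411) and FUBP3 (-0.57, blocked adjusted p = 0.00693), which without the block had adjusted p of 0.0766, 0.105 and 0.0881. With limma 0 of 11 tri-snRNP and LSm genes and 0 of 10 SMN complex genes were called, and at an unadjusted p under 0.05 there were 1 lower and 1 higher, and 0 lower and 1 higher. The tri-snRNP helicase gene SNRNP200 differed by -0.46 (adjusted p = 0.0614) and was called lower with the block (0.0304) and with cyclic loess (0.0492). The calls of PPIL3, XAB2, DDX39B and CELF5 ended without replicate 1 or 2 after maturation, and those of XAB2, DDX39B and CELF5 also without some other single arrays. Under some scalings ARGLU1, XAB2, DDX39B and CELF5 were not called either (adjusted p of 0.0511 to 0.0792 with a further quantile normalization, cyclic loess or a common median). CLK1, CLK4 and DHX15 kept theirs without any 1 array, and with ribosomal protein genes held level CLK4 turned positive (0.16) and was not called, as did ARGLU1, PPIL3, XAB2 and DDX39B. Under that scaling SNRNP48, CRNKL1, FUBP3 and SNRNP200 were positive and not called.

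**Figure D4:**
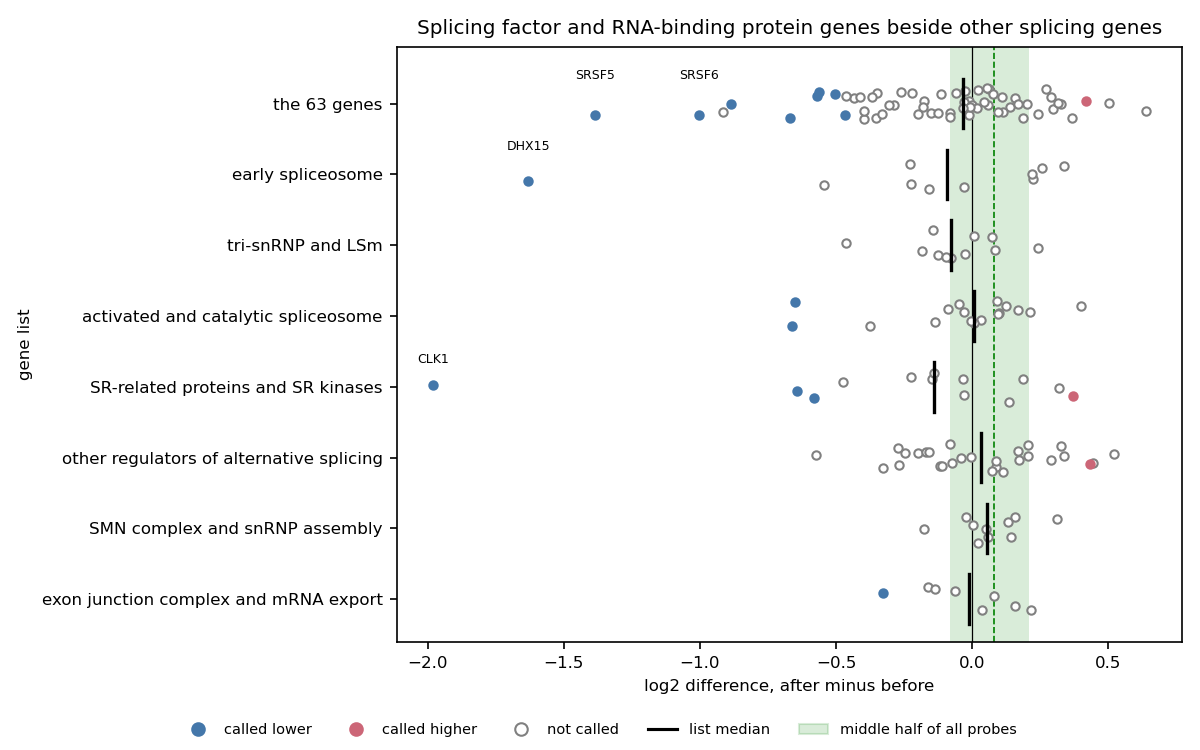
Log2 difference, after minus before maturation, of the 63 genes (top row) and of the measured genes of 7 other splicing lists, with filled points for calls, a black bar for the median of each list and a green band for the middle 50% of all probes. CLK1 (-1.98) and DHX15 (-1.63) lie left of every one of the 63 genes, and most other points lie between -0.5 and 0.5.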

How the data were processed

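The authors deposited log2 expression values made with RMA, per the submitters' processing notes, for 6 Affymetrix arrays of biotin-labelled cDNA amplified from total RNA. RMA as usually run subtracts background, quantile-normalizes and summarises probes. Version, options and filters are not stated in the sources used here. RMA output is on the log2 scale, which the values (2.69 to 12.7) do not contradict. The column medians are 5.62 to 5.70, values are not centred per gene, and with 1 colour no direction needs settling. Probes were named from the platform annotation (10922 with 1 symbol, 268 with several and 1068 with none), and 62 of the 63 genes studied had a gene identifier found in the RefSeq table, with no change of symbol. Sequences of these genes were not used here, and neither were detection calls, so background was not assessed.

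All 12258 probes were fitted with limma 3.58.1 in R 4.3.3 (lmFit, eBayes, two-sided, Benjamini-Hochberg adjustment over all probes, threshold 0.05), as after minus before maturation. The fit was tested on data simulated for this comparison with 12258 probes. It called 40 of 40 probes at a log2 change of -2, 39 of 40 at -1 and at 1, 15 of 40 at -0.5 and 21 of 40 at 0.5, and 19 of 12058 unchanged ones. Set against the 40, 39, 39, 15 and 21 true calls, the 19 false calls were a larger share of all calls than the 0.05 aimed at. The simulation drew independent normal noise without array effects or pairing, and changed fewer probes than were called in the data. It therefore does not show how the fit performs under such effects. Same-numbered arrays deviated together from their group means (correlations of 0.283, 0.120 and 0.142). The correlations of differently numbered arrays were -0.168 to 0.0191, and by the criterion used same-numbered arrays are paired. The pairing rests on the data alone, because the labels do not say what a number marks. The unblocked fit is the one reported, with the blocked values beside it where a call changes. The choice matters for the 63 genes, with 8 lower and 1 higher unblocked and 13 and 4 blocked.

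The genes and lists were chosen with earlier results of these data known. The rule for named genes took, in each family, up to 6 called genes per direction, filled to 4 by the smallest p, with 8 fixed genes of which 3 were measured, and up to 3 called genes of each other list. SRSF3, HNRNPC, RBM3, SNRPN and HNRNPA2B1 were not analysed here. Summed marker levels are log2 of the summed linear values. The alternatives were the replicate block, 4 scalings, 2 filters on dim probes, trend and robust variance, 2 ways to handle genes with several probes, and leaving out each array. Tables and figures used Python 3.11.15, pandas 2.3.3 and matplotlib 3.10.9.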

Additional observations from a re-analysis of the deposited data

How the results depend on the processing

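The number of the 63 genes called lower was 8 and became 13 with the replicate block, 1 with ribosomal protein genes held level, and 5 to 10 when single arrays were left out. The number called higher was 1 and became 4 with the block, 3 at a common median, 45 with ribosomal protein genes held level, 2 without the dimmest 25% of probes or under a robust variance trend, and 0 without the dimmest 50%, a filter that removes RBM20, and 0 to 1 when single arrays were left out. Of all probes the ribosomal scaling called 86.6% higher, and of the probes kept without the dimmest 25% and 50% the calls lower were 11.2% and 12.7%. With single arrays left out 4.33% to 8.26% of all probes were called lower and 0.840% to 3.54% higher. The median difference relative to all probes was -0.11. The block, the common median, the ribosomal scaling and the variance trend cannot move it by construction, and under the other 12 alternatives it ran from -0.16 to -0.09. Holding ribosomal protein genes level by construction adds a constant. Of the 63 genes it left 2 SRSF, 1 HNRNP and 1 PRPF gene negative, and 0 of the SNRP, SF3 and RBM genes. Among the genes named by the rule and the list genes called with or without the block, these values turned positive: SRSF1 0.70, SNRPF 0.62, SNRPD3 0.59, PRPF8 0.45, DDX39B 0.41, SNRPA 0.40, HNRNPA1 0.39, HNRNPDL 0.38, CRNKL1 0.36, SF3B1 0.27, SNRNP200 0.27, SRSF11 0.27, RBMX 0.23, SNRNP48 0.19, RBM14 0.17, RBM34 0.17, FUBP3 0.16, CLK4 0.16, ARGLU1 0.094, XAB2 0.084, PPIL3 0.074 and HNRNPM 0.069. SRSF1 also changed sign at a common median (0.023), and its values without single arrays ran from -0.15 to 0.057, positive without replicate 2 after maturation (0.057) and without replicate 2 (0.037) or 3 (0.011) before it. SNRPF changed sign after a further quantile normalization (0.017). The cause of these changes was not tested. With 6 arrays in all, small differences cannot be resolved.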
